A study of Mus musculus with 30 samples.

Results

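Late SRCAP loss was compared with early SRCAP loss in the exon counts of the auxin time course, as 8 h of indole-3-acetic acid (IAA) against 2 h. The comparison used 4 of the 30 nuclear RNA-seq libraries of the series, 2 per time, and no control library. All 4 came from SYAT cells, mouse ES cells of the CGR8 line in which both alleles of Srcap carry a YPet-AID tag and which express OsTir1 from an EF1a promoter, so that IAA triggers degradation of the tagged protein. The line goes back to 1 homozygous clone, and the study's methods call the libraries biological duplicates. Per the study's methods, the line was grown in serum and LIF with CHIR99021 and PD184352, and was moved to serum and LIF alone before experiments. Both arms received 500 µM IAA and no auxinole, a Tir1 inhibitor. Per the study's methods, the line was routinely kept in auxinole, which was also the control condition. The 2 arms differed in the hours of IAA. The time without SRCAP, the time in IAA and any time since auxinole was removed cannot be told apart between them. CGR8 cells without the tag, with and without 4 h of IAA (4 libraries), showed what IAA alone went with. The remaining SYAT libraries (control, 4 h and 6 h, 2 each) shared no library with the comparison and were used to place its genes in time.

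SRCAP is the ATPase of a chromatin remodelling complex that exchanges histone H2A for the variant H2A.Z in nucleosomes near promoters and enhancers. In ES cells H2A.Z marks active and poised promoters, and its loss is known to disturb differentiation. When a chromatin factor is removed within hours, early differences in RNA are likelier to lie close to its own action, and later ones can also hold the response to altered regulators and the slow decay of stable transcripts. The RNA of Srcap itself does not report on its degradation, which acts on the protein. Srcap stood at 46.1 and 47.8 exon CPM (counts scaled to a common library size by TMM) in the 2 h libraries and at 44.9 and 58.8 in the 8 h libraries, and the times overlapped (log2 fold change 0.13 ± 0.14, SE, adjusted p = 0.909 in edgeR's quasi-likelihood test). All levels below are CPM of exon counts on this scale, given as the 2 h libraries (replicates 1 and 2) and then the 8 h libraries, and errors are standard errors of the log2 fold change. In bulk libraries fewer cells of a kind and less RNA per cell cannot be told apart.

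The 10 markers of ES cells were all present, at a summed 2506 to 2991 CPM at 2 h and 2789 to 2822 CPM at 8 h. Markers of primitive endoderm summed to 428.9 to 519.9 CPM at 2 h and 442.1 to 575.8 CPM at 8 h (12 genes). Most of that sum was Lamb1, at 339.3 and 287.6 CPM and then 383.8 and 307.2 CPM. Gata6 stood at 0.87 and 0.73 CPM and then 1.52 and 1.44 CPM. Markers of trophoblast summed to 111.5 to 142.8 and 103.8 to 168.1 CPM (9 tested of 12 listed). Those of fibroblasts summed to 27.2 to 28.24 and 27.98 to 36.17 CPM (7 tested of 10 listed). None of the 9 markers of 2-cell-like cells found in the table had enough counts to be tested. Exon counts per library ranged from 18540456 to 22518456 in the 4 libraries. Replicate 2 of the 6 h time stood apart from the other 9 SYAT libraries. Its score on the first principal component was 60.3, against -14.6 to 10.2 elsewhere, and its TMM factor was 0.854 against 0.966 to 1.083. It is no member of the comparison, but it enters the spread of a fit over all 8 IAA libraries.

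In that fit, edgeR's quasi-likelihood test with the replicate number as a block and Benjamini-Hochberg adjustment called 0 of 18858 genes at an absolute log2 fold change over 0.5 and an adjusted p under 0.05. At an unadjusted p under 0.05, 920 genes lay lower at 8 h (4.88%) and 522 higher (2.77%), and the smallest adjusted p was 0.358. Fitted on the 4 libraries alone, with the block, the same test called 239 of 18219 genes lower at 8 h (1.31%) and 112 higher (0.615%). This fit rests on 1 residual degree of freedom. Without the 6 h replicate 2, the fit over 7 libraries called 336 of 20284 genes lower (1.66%) and 143 higher (0.705%), among them 237 of the 239 and 104 of the 112. limma voom with sample quality weights called 157 lower (0.833%) and 78 higher (0.414%) over the 8 libraries. These 2 fits were added after seeing the data. Without the block, the 4-library fit and the 8-library fit called 0 genes in either direction. With the block, DESeq2 on the 4 libraries called 5 lower and 9 higher. There the 0.5 cut was applied to shrunken fold changes, so it is stricter than in edgeR, and 40 genes had an adjusted p under 0.05. The count of calls differed with the block and with the 6 h library, and the genes below are given by their values, with the fit named wherever a call is used. The plot of all genes shows the calls of the 4-library fit on the fold changes of the 8-library fit.

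**Figure D1:**
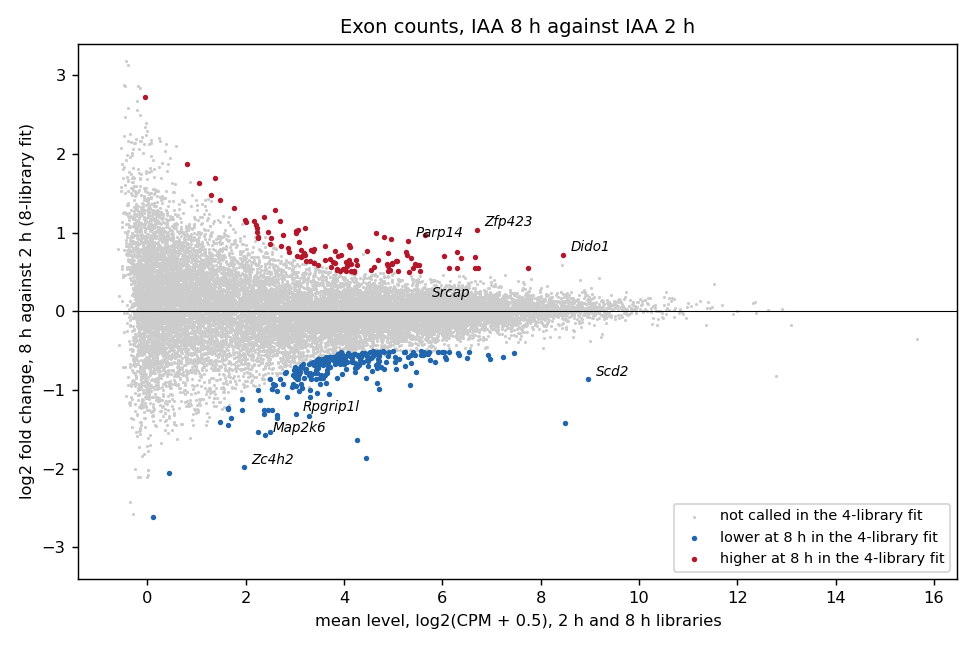
Log2 fold change of exon counts at 8 h against 2 h of IAA (y axis, 8-library fit) against mean level in the 4 libraries (x axis, log2 of CPM plus 0.5), one point per gene. The 239 genes called lower in the 4-library fit are blue and the 112 called higher are red, with Zfp423 at 1.04, Scd2 at -0.87 and Srcap at 0.13.

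The genes with the smallest p among those lower at 8 h were Scd2, Zswim8, Wdr7, Zc4h2, Calcoco1, Zzef1, Emilin1, Map2k6, Hykk and Lipa, and among those higher Zfp423, Pdzd2, Parp14, Dido1, Itpr3, Lrrc75aos2, Wt1, Hmga2, Dcaf12l1 and Lgals9. All 20 were called in the 4-library fit and none in the 8-library fit, where their adjusted p lay between 0.358 and 0.44.

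Scd2 (chr19:44293674-44306864, mm10), a stearoyl-CoA desaturase that makes monounsaturated fatty acids, was the most abundant of these 10 lower genes. It stood at 817.6 and 461.8 CPM at 2 h and at 489.8 and 233.0 CPM at 8 h. The times overlapped because replicate 1 lay above replicate 2 throughout, while within each replicate number the 8 h library was lower (log2 fold change -0.87 ± 0.12, SE). Zc4h2 (chrX:95639193-95658509), a zinc finger protein known for its part in neural development, had 6.11 and 4.78 CPM at 2 h and 1.76 and 1.03 CPM at 8 h. The times were apart, and its log2 fold change of -1.98 ± 0.30 was the strongest of the 20. Map2k6, the kinase that activates p38, went from 7.85 and 6.53 CPM to 2.06 and 2.71 CPM (-1.58 ± 0.26). Emilin1, an extracellular matrix glycoprotein, went from 6.92 and 5.76 CPM to 2.59 and 1.81 CPM (-1.54 ± 0.25). Both had their 8 h libraries under those of 2 h and under 3 CPM.

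Lipa encodes the lysosomal acid lipase. It had 8.72 and 7.56 CPM at 2 h against 3.67 and 2.92 CPM at 8 h (-1.31 ± 0.23). Hykk, a hydroxylysine kinase, had 6.38 and 7.60 CPM against 2.89 and 2.96 CPM (-1.25 ± 0.22). Calcoco1, a selective autophagy receptor, stood at 33.5 and 35.0 CPM and then at 17.9 and 16.7 CPM (-0.99 ± 0.15). Of the 10 lower genes, all but Scd2 had both 8 h libraries below both 2 h libraries. Zswim8, the substrate receptor of the ubiquitin ligase in target-directed microRNA decay, went from 59.0 and 45.4 CPM to 32.7 and 22.3 CPM (-0.94 ± 0.14). Wdr7, a regulator of the vacuolar proton pump, went from 32.3 and 32.9 CPM to 16.8 and 17.8 CPM (-0.92 ± 0.14), and it overlaps antisense genes, Txnl1 among them. Zzef1 went from 52.5 and 56.8 CPM to 29.1 and 35.1 CPM (-0.77 ± 0.12). In CGR8 cells 4 h of IAA went with log2 fold changes of -0.58 for Scd2 and -0.60 for Zswim8, and with -0.30 to 0.22 for the other 8, Emilin1 at -0.30 and Lipa at 0.22.

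Of the higher genes, Zfp423 (chr8:87661810-87959595), a zinc finger factor of neural and adipocyte progenitors, had the smallest p in either direction. Its level was 61.0 and 74.6 CPM at 2 h and 134.0 and 144.1 CPM at 8 h, a log2 fold change of 1.04 ± 0.12. Pdzd2, a protein with many PDZ domains, went from 29.3 and 38.3 CPM to 60.1 and 71.4 CPM (0.97 ± 0.12). Parp14, a mono-ADP-ribosyltransferase induced by interferon, went from 31.0 and 23.2 CPM to 59.0 and 42.5 CPM (0.90 ± 0.13). In all 3 the 8 h libraries lay above both 2 h libraries. Wt1, a factor of the kidney and gonad, went from 19.7 and 17.9 CPM to 33.4 and 39.1 CPM (0.95 ± 0.16). Hmga2, an architectural chromatin protein of early embryonic cells, went from 27.7 and 30.4 CPM to 45.7 and 49.8 CPM (0.72 ± 0.12). Itpr3, a calcium release channel, went from 46.7 and 52.7 CPM to 80.3 and 81.3 CPM (0.70 ± 0.11). Their libraries were also apart. Lrrc75aos2, which lies antisense to Lrrc75a, had 4.42 and 2.18 CPM and then 9.45 and 6.16 CPM (1.29 ± 0.21), and since strand was not stated for the counting its reads cannot be told apart from those of Lrrc75a.

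Dcaf12l1 went from 69.2 and 46.0 CPM at 2 h to 124.3 and 73.1 CPM at 8 h (0.76 ± 0.14), and Lgals9, the galectin-9 gene, from 3.65 and 6.79 CPM to 8.22 and 12.9 CPM (1.03 ± 0.20). Replicate 1 lay above replicate 2 in Dcaf12l1 and below it in Lgals9, yet both 8 h libraries exceeded both 2 h libraries. With IAA in CGR8 cells the log2 fold changes of the higher genes ran from -0.68 for Pdzd2 to 0.57 for Lrrc75aos2, with 0.50 for Parp14, 0.49 for Lgals9 and 0.40 for Zfp423. In cells whose SRCAP was not tagged, Parp14, Lgals9, Lrrc75aos2 and Zfp423 thus had values above 0 as well. Itpr3, Wt1, Dido1 and Dcaf12l1 lay between 0.03 and 0.27 there, and Hmga2 at -0.05. The study itself, using intronic reads, reported that 4 h of IAA left transcription in wild-type CGR8 cells unaffected. The part of IAA itself in the SYAT differences was not tested.

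**Figure D2:**
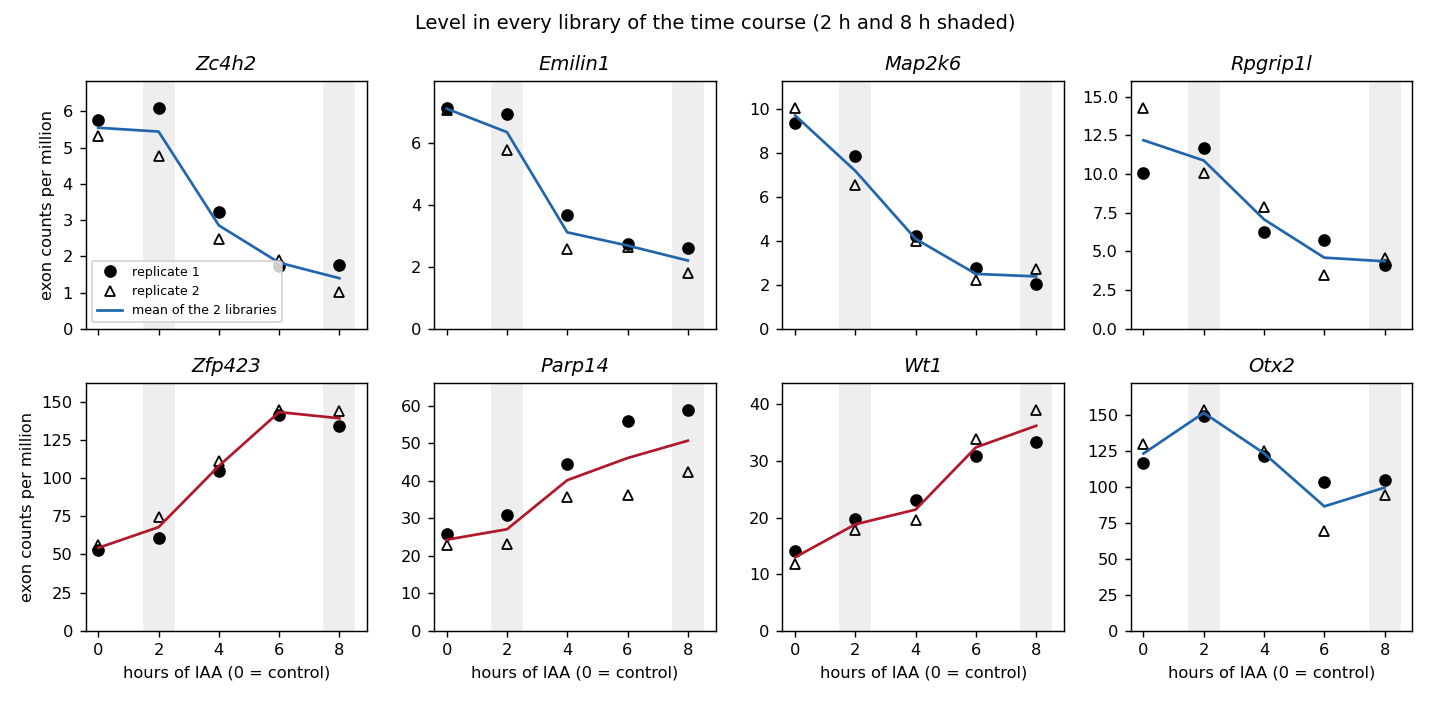
Exon CPM in every SYAT library (y axis, starting at 0) against hours of IAA (x axis, 0 is the control), for 8 genes. Filled circles are replicate 1, open triangles replicate 2 and lines the mean of the 2 libraries. Zc4h2, Emilin1, Map2k6 and Rpgrip1l go down from 2 h to 8 h, Zfp423, Parp14 and Wt1 go up, and Otx2 is highest at 2 h.

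The shape of the course differed among genes. In Zc4h2 the controls (5.77 and 5.33 CPM) lay near the 2 h libraries. Otx2 and Zic2 had another course. Otx2, a homeobox factor of the formative and primed state, was at 116.7 and 129.7 CPM in the controls. It was at 149.2 and 153.7 CPM at 2 h, and at 104.6 and 94.4 CPM at 8 h. Its log2 fold change, 8 h against 2 h, was -0.61 ± 0.16 in the 8-library fit (adjusted p = 0.518). In the 4-library fit the adjusted p of Otx2 was 0.000248. Zic2, a zinc finger factor of the same state, was at 171.8 and 159.9 CPM in the controls. It was at 214.6 and 201.2 CPM at 2 h, and at 148.0 and 139.1 CPM at 8 h. Its log2 fold change was -0.53 ± 0.12 in the 8-library fit (adjusted p = 0.4405), and its adjusted p in the 4-library fit was 0.00163. In these genes the 2 h libraries lay above the control libraries and the 8 h libraries below them. Dido1, which encodes a protein that binds methylated histone H3, had the mirror course. It had 354.9 and 385.2 CPM in the controls, 258.9 and 271.2 CPM at 2 h and 432.1 and 440.0 CPM at 8 h. Its log2 fold change was 0.72 ± 0.11 in the 8-library fit (adjusted p = 0.4093), and its adjusted p in the 4-library fit was 0.000128. Otx2 and Zic2 were named as members of the formative list and Dido1 for its p between 8 h and 2 h, and the place of the control is a description. With IAA in CGR8 cells, Otx2 stood at a log2 fold change of 0.58, Zic2 at 0.39 and Dido1 at 0.09.

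The genes called in the 4-library fit were followed into libraries that this fit did not use. Relative to the same-numbered control, the median log2 difference of the 239 lower genes was -0.447 and -0.468 in the 4 h libraries and -0.712 and -0.565 in the 6 h libraries, where all 18219 genes had medians between -0.00378 and 0.0105. In the 4 h libraries 93.7% and 98.3% of the lower genes lay under their control, against 50.3% and 48.6% of all genes. The 112 higher genes had medians of 0.423 and 0.518 at 4 h and of 0.691 and 0.849 at 6 h, and 91.1% of them lay above the control in either 4 h library. In the 2 h libraries the medians were -0.146 and -0.148 for the lower genes and 0.124 and 0.167 for the higher ones. Those libraries took part in choosing the genes, so these 2 h medians are not independent of the choice. Between 4 h and 6 h, without any control, 90.4% of the lower genes went down within replicate 1 (all genes 52.7%) and 59.4% within replicate 2 (all genes 49.4%). The share in replicate 2 uses the 6 h library that stands apart, and the part of that library in it was not tested. Of the higher genes, 92.0% went up within replicate 1 (all genes 47.2%) and 78.6% within replicate 2 (all genes 50.6%). The 6 h against 4 h comparison itself called 0 genes in the 8-library fit.

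In CGR8 cells given 4 h of IAA, the lower genes had medians of -0.0709 and -0.053 in the 2 replicates, and 59.0% and 56.9% lay under the control. The higher genes had medians of 0.267 and 0.117 there, with 70.5% and 58.9% above the control (all genes 51.5% and 48.8%). Called genes were also longer than the rest. The median gene span was 27.8 kb for the lower and 36.6 kb for the higher genes, against 15.8 kb for all genes tested, and 96.7% and 88.4% were protein coding, against 76.3%. Their median level at 2 h was 16.7 and 12.0 CPM against 8.99 CPM, so that more counts stood behind them, and whether length or level had a part in the calls was not tested.

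**Figure D3:**
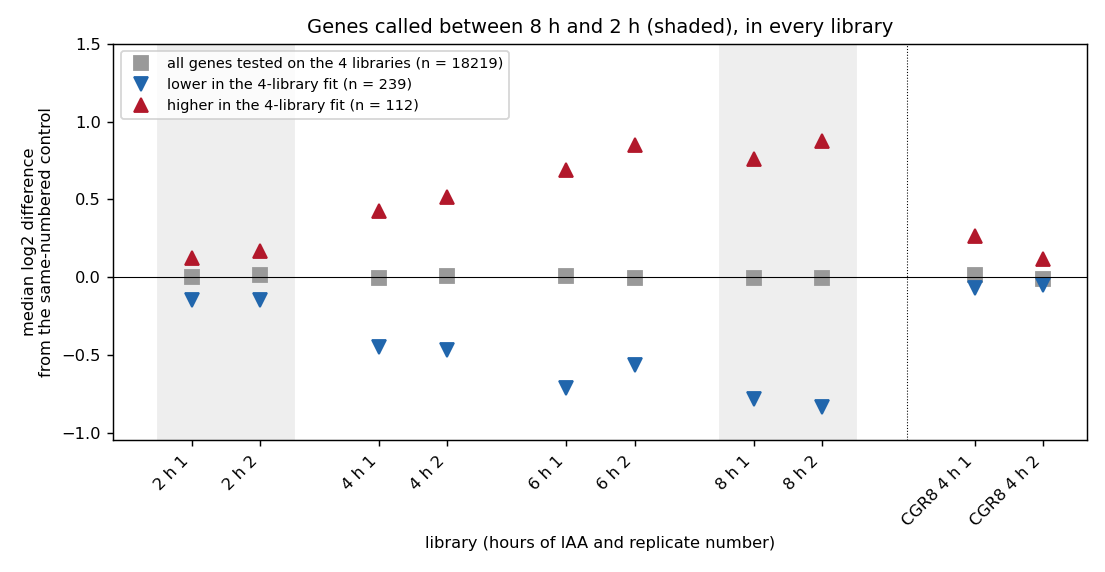
Median log2 difference from the same-numbered control (y axis) in each library (x axis, hours of IAA and replicate number), for the 239 genes lower and the 112 genes higher at 8 h than at 2 h in the 4-library fit and for all 18219 genes tested. The 2 h and 8 h libraries that chose the genes are shaded. The 4 h and 6 h libraries, which did not choose them, lie mostly in between, and the CGR8 libraries are on the right.

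Cilium genes had the lowest median of the lists with 10 or more genes tested. The 58 genes cover intraflagellar transport, the BBSome, which carries membrane proteins into and out of the cilium, and the transition zone at its base. Their median log2 fold change from 2 h to 8 h was -0.416, against 0.016 over all genes tested, and -0.389 and -0.381 within replicates 1 and 2. In 41 of the 58 both 8 h libraries lay below both 2 h libraries (18.4% of all genes) and in 2, Ofd1 and Inpp5e, both above (16.4%). The 4-library fit called 8 of them lower (1.31% of all genes) and 0 higher (0.615%), and the 8-library fit 0. The list was written with earlier results of these data known and is no independent evidence of its direction. In CGR8 cells with IAA its median was 0.0252.

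Among the subunits of the intraflagellar transport trains, Ttc26 had 8.12 and 8.45 CPM at 2 h and 2.94 and 3.49 CPM at 8 h. Its 4 h libraries lay between these, at 5.87 and 5.03 CPM. The log2 fold change of Ttc26 was -1.36 ± 0.27 in the 8-library fit (adjusted p = 0.4405). In the 4-library fit its adjusted p was 0.000432. In the transition zone, Rpgrip1l had 11.7 and 10.1 CPM and then 4.11 and 4.60 CPM. The log2 fold change of Rpgrip1l was -1.31 ± 0.27 in the 8-library fit (adjusted p = 0.4405). In the 4-library fit its adjusted p was 0.000119. In both genes the 8 h libraries lay well below either 2 h library. The other 6 members called in the 4-library fit were Cc2d2a, Tctn2, Tmem237 and Cep290 of the transition zone, Ift88 of the transport trains and Arl13b, a GTPase of the ciliary membrane, with log2 fold changes from -0.95 for Cc2d2a to -0.56 for Cep290; these 6 are named beyond the rule, after their values were seen. At the other end of the list, Ofd1, a centriole protein, stood at 0.25 and Inpp5e, a ciliary phosphatase, at 0.26.

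Promoter windows from RefSeq (GRCm38.p6, 250 bases before to 50 after the start) were searched for GTTGCCA, the core of the X-box bound by RFX factors, on both strands, because RFX factors are known regulators of ciliary genes. It was found in 12 of the 50 cilium genes with a window (24%), in 14 of 182 windows of the lower genes (7.69%), in 3 of 68 of the higher genes (4.41%) and in 533 of 11475 of all genes tested (4.64%). The windows of 2 called members are shown, 5′ to 3′ on the gene's strand, with the match in capitals.
Ttc26 (chr6:38381274-38381573, plus strand): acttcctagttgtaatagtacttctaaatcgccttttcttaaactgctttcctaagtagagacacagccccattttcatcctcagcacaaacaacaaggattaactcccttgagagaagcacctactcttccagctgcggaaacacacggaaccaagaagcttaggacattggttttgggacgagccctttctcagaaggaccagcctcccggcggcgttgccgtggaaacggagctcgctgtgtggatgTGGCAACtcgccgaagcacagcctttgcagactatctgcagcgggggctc
Tctn2 (chr5:124598499-124598798, plus strand): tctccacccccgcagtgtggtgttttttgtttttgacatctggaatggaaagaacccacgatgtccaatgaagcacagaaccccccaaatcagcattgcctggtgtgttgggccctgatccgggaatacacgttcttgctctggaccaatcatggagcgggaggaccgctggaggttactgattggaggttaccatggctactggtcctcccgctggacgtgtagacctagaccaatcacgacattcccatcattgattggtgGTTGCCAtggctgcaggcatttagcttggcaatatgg
In Ttc26 the match is TGGCAAC, the reverse complement, and starts at base 251, the first after the annotated start; in Tctn2 it is on the gene's own strand. Rpgrip1l had no GTTGCCA in its window.

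A second motif was followed through the lower genes, the core of the long site of ZNF143 and its partners. It was found in 11 of 182 windows of the lower genes (6.04%), in 0 of 68 of the higher genes and in 489 of 11475 of all genes tested (4.26%). The 11 were those of Amt, Bivm, Calcoco1, Cep128, Cops7b, Fsd1, Fto, Rpgrip1l, Sirt2, Ufsp2 and Zc4h2. The windows of Calcoco1 and Rpgrip1l, which lay lower at 8 h in both replicates, are given with the matches in capitals.
Calcoco1 (chr15:102722129-102722428, minus strand): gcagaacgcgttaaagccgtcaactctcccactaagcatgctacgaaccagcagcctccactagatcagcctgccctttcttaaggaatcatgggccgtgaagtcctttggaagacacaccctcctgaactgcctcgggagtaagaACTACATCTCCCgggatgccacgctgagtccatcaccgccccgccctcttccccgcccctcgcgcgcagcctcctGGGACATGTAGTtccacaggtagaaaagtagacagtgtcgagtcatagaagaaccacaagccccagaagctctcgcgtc
Rpgrip1l (chr8:91313173-91313472, minus strand): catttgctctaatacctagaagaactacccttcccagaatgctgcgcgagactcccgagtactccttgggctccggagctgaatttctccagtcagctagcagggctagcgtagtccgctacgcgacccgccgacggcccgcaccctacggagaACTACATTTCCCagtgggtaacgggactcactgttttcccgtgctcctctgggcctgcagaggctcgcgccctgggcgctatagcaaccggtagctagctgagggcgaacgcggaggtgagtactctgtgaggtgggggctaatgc
The share among the lower genes was near that of all genes tested, and the matches are a description of these windows. Both motifs were taken from 22 that were searched after the gene groups were known, so no test was made.

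Genes that respond to interferon were not among the lists drawn up at first. A list of 54 such genes was written after Parp14, Lgals9 and members of the guanylate-binding (Gbp) family had been seen, so its direction is no independent evidence. Of its 45 genes tested, 9 were called higher in the 4-library fit (0.615% of all genes) and 0 lower (1.31%), and the 8-library fit called 0. The median log2 fold change was 0.382 (all genes 0.016), and 0.331 and 0.319 within replicates 1 and 2. In 12 genes the 8 h libraries lay above both 2 h libraries (16.4% of all genes), and in 2, Oas3 and Ifit2, below (18.4%). Its members are named here after their values were seen. Oasl2, a relative of the antiviral oligoadenylate synthetases, had 6.27 and 4.06 CPM at 2 h and 11.2 and 9.04 CPM at 8 h. Xaf1, an interferon-induced regulator of apoptosis, had 3.16 and 2.73 CPM and then 5.53 and 5.71 CPM.

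Tapbp, a chaperone that loads peptides onto MHC class I, had 73.4 and 53.2 CPM and then 124.8 and 79.3 CPM (log2 fold change 0.68, adjusted p = 3.6e-05 in the 4-library fit). Its replicates differed, but its 8 h libraries lay above both 2 h libraries. The MHC class I heavy chains H2-K1 and H2-D1 and their light chain B2m stood at log2 fold changes of -0.22, -0.29 and -0.06. Gbp2b, a guanylate-binding GTPase, had 34.0 and 17.6 CPM at 2 h and 54.6 and 26.8 CPM at 8 h, so that the times overlapped through the replicates and differed within each. Gbp2 went from 48.6 and 25.5 CPM to 76.5 and 33.0 CPM and Gbp3 from 14.2 and 6.79 CPM to 23.7 and 9.45 CPM. Gbp genes are close paralogs, and reads may have been split among them. In CGR8 cells with IAA the median of the list was 0.151 (all genes 0.00707), with 0.82 for Oasl2 and 0.60 for Gbp2b, and the part of IAA in the SYAT difference was not tested.

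The core of the interferon-stimulated response element, a pair of TTTC words apart by any 2 bases, was searched on both strands in the same windows. It was found in 9 of 68 windows of the higher genes (13.2%), in 6 of 182 of the lower genes (3.3%) and in 400 of 11475 of all genes tested (3.49%). Of the interferon list 17 of 35 windows held it (48.6%). The 9 higher genes include Gbp2, Gbp2b, Gbp3 and Lgals9 of that list, which was written after such genes had been seen. The others were Dhrs3, Gfra1, Inhbb, Itga3 and Tll1. This motif too was among the 22 searched after the gene groups were known, so its share is no independent evidence and no test was made. The windows of Gbp2b and Lgals9, called higher in the 4-library fit, are given with the matches in capitals.
Gbp2b (chr3:142594597-142594896, plus strand): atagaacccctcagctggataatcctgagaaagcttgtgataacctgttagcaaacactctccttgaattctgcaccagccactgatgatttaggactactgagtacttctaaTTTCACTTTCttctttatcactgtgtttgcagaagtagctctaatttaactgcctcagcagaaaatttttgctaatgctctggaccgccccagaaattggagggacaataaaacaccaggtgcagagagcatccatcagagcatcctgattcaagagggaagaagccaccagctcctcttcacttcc
Lgals9 (chr11:78984875-78985174, minus strand): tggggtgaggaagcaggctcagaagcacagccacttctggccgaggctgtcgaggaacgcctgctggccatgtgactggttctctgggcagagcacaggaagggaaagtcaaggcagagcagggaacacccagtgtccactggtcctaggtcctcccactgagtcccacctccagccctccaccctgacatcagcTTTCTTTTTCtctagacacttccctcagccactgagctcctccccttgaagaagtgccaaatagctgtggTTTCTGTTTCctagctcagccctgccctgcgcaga
Gbp2b holds 1 match, and Lgals9 holds 2, which start at bases 196 and 266 of its window.

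**Figure D4:**
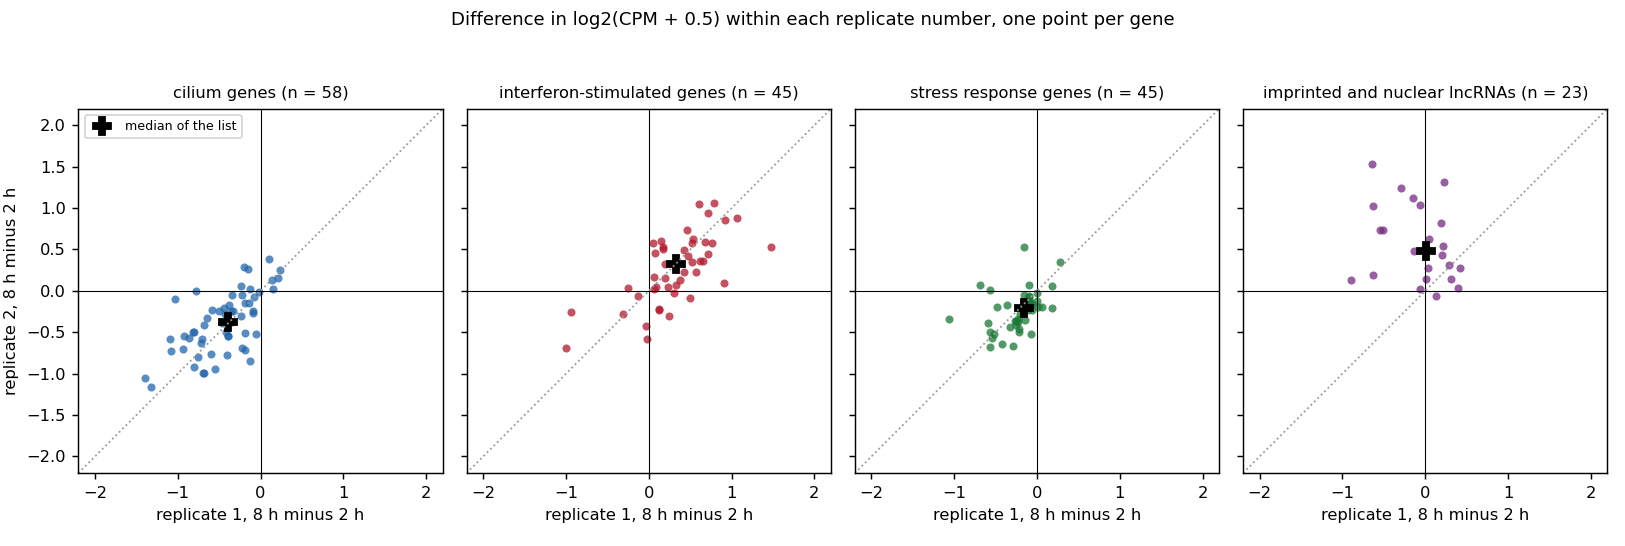
Difference between 8 h and 2 h within replicate 2 (y axis) against that within replicate 1 (x axis), in log2 of CPM plus 0.5, one point per gene, for 4 lists. The black cross is the list's median. Cilium genes (median -0.389 and -0.381) and interferon-stimulated genes (0.331 and 0.319) lie along the diagonal, and the imprinted and nuclear long noncoding RNAs (0.00625 and 0.476) lie on both sides of 0 in replicate 1 and, but for 1 gene, above 0 in replicate 2.

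Genes of the integrated stress response, which ATF4 induces when amino acids run short or protein folding fails, had a median log2 fold change of -0.241 (45 genes), which was -0.146 without the 8 h replicate 2. In 28 of them both 8 h libraries lay below both 2 h libraries (18.4% of all genes) and in 1 above (16.4%). The 4-library fit called 3 lower, Mthfd2, Aldh18a1 and Gpt2 (1.31% of all genes), and 0 higher (0.615%). Mthfd2, a mitochondrial folate enzyme, had 65.4 and 56.6 CPM at 2 h and 48.5 and 36.1 CPM at 8 h (-0.54 ± 0.12 in the 8-library fit, adjusted p = 0.0014 in the 4-library fit). Slc7a1, a carrier of cationic amino acids, had 70.9 and 57.0 CPM and then 47.0 and 43.3 CPM, a log2 fold change of -0.50 in the 8-library fit. With IAA in CGR8 cells these 2 genes stood at log2 fold changes of -0.57 and -0.72, and the list's median there was -0.409. What part of its late difference in SYAT cells goes with IAA was not tested.

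Lipid synthesis genes also had medians below 0 in both cell lines. The median was -0.184 over 25 genes of cholesterol synthesis and -0.132 over 22 of fatty acid synthesis, and -0.373 and -0.173 with IAA in CGR8 cells. Both 8 h libraries lay below both 2 h libraries in 0 of the 25 and 4 of the 22 (18.4% of all genes). They lay above in 0 of either list (16.4%). The 4-library fit called 1 of the 25 and 2 of the 22 lower (1.31% of all genes) and 0 higher (0.615%). In addition to Scd2, Acsl1, which activates long-chain fatty acids, had 21.9 and 23.4 CPM at 2 h and 14.1 and 16.6 CPM at 8 h, and was called lower in the 4-library fit (adjusted p = 0.016). Nsdhl, a sterol dehydrogenase, had 22.6 and 15.5 CPM and then 16.3 and 9.82 CPM, so that the times overlapped. The fatty acid synthase gene Fasn, the most abundant of the fatty acid list and named for that, stood at 2321 and 1766 CPM and at 2215 and 1635 CPM. Fasn thus differed more between replicates than between times.

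Imprinted and nuclear long noncoding RNAs had a median of 0.323 over 23 genes, but the replicates differed. The median was 0.00625 between the replicate 1 libraries and 0.476 between those of replicate 2, and without the 8 h replicate 2 the fitted median was -0.0427. Kcnq1ot1, the antisense transcript that silences an imprinted domain, had 235.7 and 284.5 CPM at 2 h and 192.6 and 675.5 CPM at 8 h. Xist had 11.1 and 16.2 CPM and then 6.95 and 47.8 CPM. Neat1, the scaffold of paraspeckles, had 35.1 and 48.5 CPM and then 31.8 and 67.6 CPM. In these 3, named after their values were seen, the 8 h replicate 1 lay below and the 8 h replicate 2 above both 2 h libraries, so the times overlapped. Tsix, which lies antisense to Xist, had 6.98 and 8.92 CPM and then 8.27 and 22.9 CPM. Since strand was not stated for the counting, reads of Xist and Tsix cannot be told apart. The snoRNA host genes Snhg12 and Gas5 lay higher in both replicates. Snhg12 had 64.3 and 58.6 CPM at 2 h and 74.4 and 85.8 CPM at 8 h, with a log2 fold change of 0.38. Gas5 had 120.7 and 116.8 CPM and then 138.8 and 158.5 CPM. The part of this difference between replicates in the other results was not tested.

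Lars2 and Mir6236, also called lower, followed another pattern. Lars2, a mitochondrial leucyl-tRNA synthetase gene, and Mir6236 are known to collect reads of ribosomal RNA. Lars2 had 510.5 and 435.1 CPM at 2 h, 95.9 and 394.7 CPM at 8 h, and 148.3 and 1676 CPM at 6 h. Mir6236 had 35.1 and 26.9 CPM at 2 h, 4.85 and 18.04 CPM at 8 h, and 7.60 and 113.6 CPM at 6 h. Both were highest in the 6 h replicate 2 and lower at 8 h than at 2 h mainly in replicate 1. In the 4-library fit the adjusted p was 0.00037 for Lars2 and 1.17e-05 for Mir6236, and in the 8-library fit the adjusted p was 0.743 and 0.69. These genes were named after their values were seen. The most abundant feature, ENSMUSG00000118642.1, took 3.06% to 10.2% of the exon counts of the SYAT libraries with IAA. What part it had in the calls was not tested.

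For pluripotency genes, the median was -0.0171 over the 24 genes of naive pluripotency. Of the 10 ES cell markers 0 were called by either fit, where the 4-library fit called 1.31% of all genes lower and 0.615% higher. Tdgf1, the Nodal co-receptor, had the smallest p of these markers, with a log2 fold change of 0.40 and 383.5 CPM on average at 2 h against 507.4 CPM at 8 h. Tbx3, a T-box factor of the naive state, was called lower in the 4-library fit, with 21.4 and 40.1 CPM and then 16.1 and 26.6 CPM, so that the times overlapped. With IAA in CGR8 cells Tdgf1 stood at 0.54 and Tbx3 at 0.58. Among the 24 factors of mesoderm and endoderm, 2 were called higher in the 4-library fit (0.615% of all genes) and 0 lower (1.31%). Meis1, a homeobox cofactor, had 3.16 and 3.42 CPM at 2 h and 6.90 and 6.37 CPM at 8 h (log2 fold change 1.0 ± 0.22), and Tbx20, a cardiac T-box factor, had 18.3 and 13.5 CPM and then 33.7 and 21.5 CPM (0.77 ± 0.17). In CGR8 cells the log2 fold change with IAA was 0.78 for Meis1 and 0.28 for Tbx20.

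G1 to S genes had a median of -0.0629 (40 genes) and those of G2 and mitosis -0.0116 (42 genes). The replicates differed in sign, with medians of 0.0103 in replicate 1 and -0.138 in replicate 2 for G1 to S and of 0.0653 and -0.0602 for G2 and mitosis. In 12 of the G1 to S genes both 8 h libraries lay below both 2 h libraries (18.4% of all genes) and in 3 above (16.4%). The 4-library fit called 1 of them lower (1.31% of all genes) and 1 higher (0.615%). Gins1, a subunit of the replicative helicase, was the one called lower, with 16.3 and 18.5 CPM at 2 h and 11.2 and 13.2 CPM at 8 h. Its log2 fold change was -0.52 ± 0.15 in the 8-library fit (adjusted p = 0.5264), and its adjusted p in the 4-library fit was 0.0493. Ccnd2, cyclin D2, was the one called higher, with an average of 21.3 CPM at 2 h and 39.4 CPM at 8 h. Its log2 fold change was 0.92 ± 0.19 in the 8-library fit (adjusted p = 0.4405), and its adjusted p in the 4-library fit was 3.74e-06. Myc averaged 111.3 CPM at 2 h and 143.2 CPM at 8 h. Of the 41 genes of ribosome biogenesis, 19 had both 8 h libraries above both 2 h libraries (16.4% of all genes) and 4 below (18.4%). Their median was 0.0646, and neither fit called a member (all genes in the 4-library fit 1.31% lower and 0.615% higher). The median was 0.177 within replicate 1 and 0.00188 within replicate 2. Within the SRCAP complex and the H2A.Z genes, Dmap1, a subunit shared with the TIP60 complex, was called lower in the 4-library fit, with 19.95 and 20.11 CPM at 2 h and 14.7 and 12.4 CPM at 8 h. Its control libraries lay higher still, at 27.2 and 28.1 CPM. Dmap1 was the 1 called of the 14 genes of this list (all genes 1.31% lower and 0.615% higher), whose median was 0.0236.

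**Figure D5:**
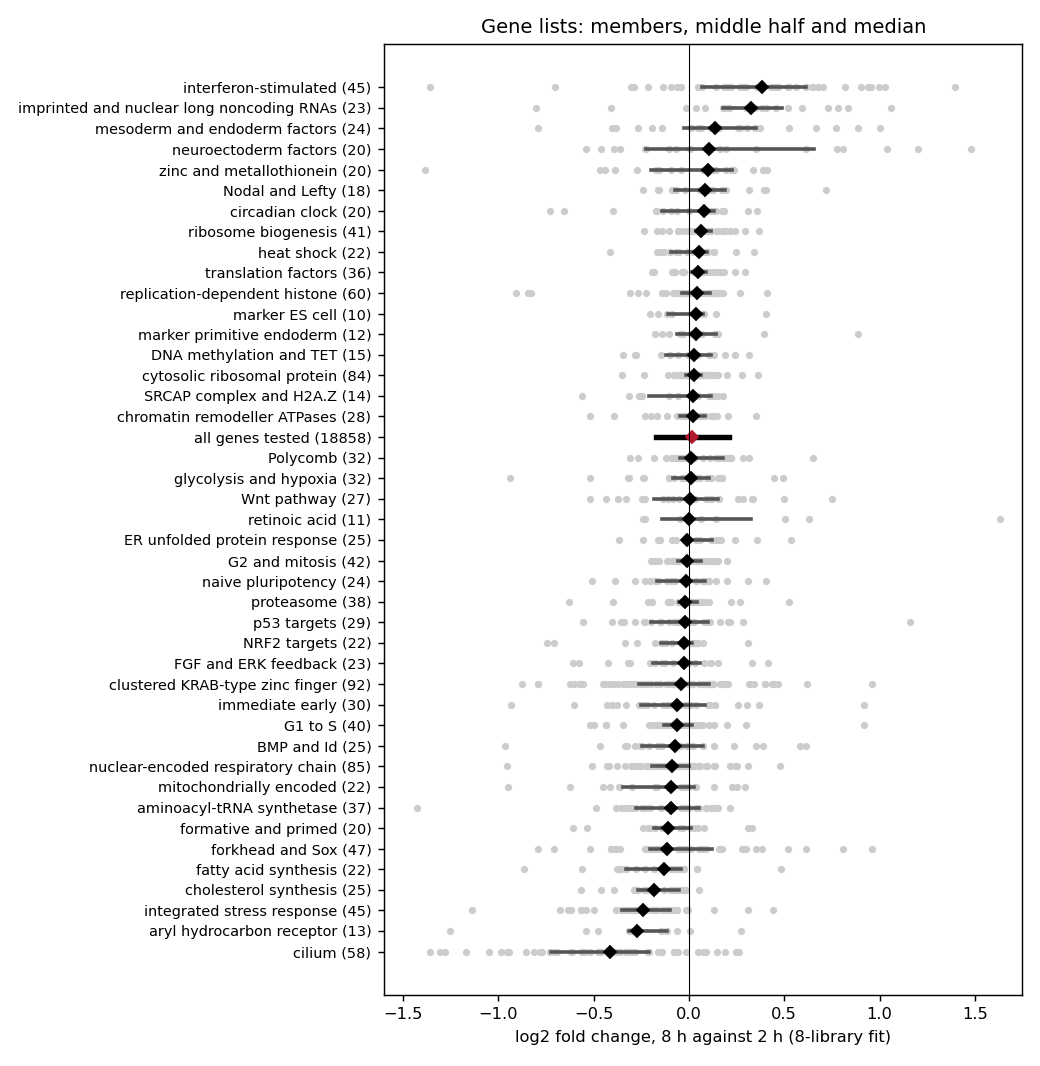
Log2 fold change of exon counts at 8 h against 2 h (x axis, 8-library fit) for each gene list with 10 or more genes tested (y axis, number of genes in brackets). Grey points are genes, bars span the quartiles and diamonds mark the median. The red diamond is the median of all 18858 genes tested, 0.016. Cilium genes lie lowest, at -0.416, and the interferon list, written after its genes were seen, highest, at 0.382.

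In the intron columns, the same comparison called 0 of 14493 genes in the 8-library fit. On the 4 libraries alone it called 11 of 14160 lower (0.0777%) and 26 higher (0.184%). The intron columns hold reads of exons as well, since 692 of 1302 genes with a single exon had counts there, so they are no separate measure of new transcription. Of the 239 genes called lower in exons, 207 were tested in introns with a median log2 fold change of -0.642, and of the 112 higher ones 94 were tested with a median of 0.605, against -0.0172 over all genes. Among the named genes, the intron log2 fold changes were -2.06 for Zc4h2, -1.19 for Scd2, -0.40 for Wdr7, 0.97 for Pdzd2 and 0.56 for Zfp423.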

How the data were processed

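Nuclear RNA was sequenced in duplicate. Per the study's methods, reads were aligned to mm10 with STAR and assigned with featureCounts to GENCODE vM25, and the authors deposited raw exon and intron counts per gene. The submitters' processing notes also name SAMtools 1.10, Picard and DESeq2. Strand setting was not given in the sources used here. The deposited comparison tables hold the authors' log2 fold changes and p-values and were not used.

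Counts of the 8 SYAT IAA libraries were filtered (filterByExpr, minimum count 10, minimum total 15), TMM-scaled and fitted with time and replicate number in edgeR 4.0.16 (R 4.3.3). Calls required an adjusted p under 0.05 (Benjamini-Hochberg) and an absolute log2 fold change over 0.5. The block was taken over from an earlier analysis of these data, made with the deposited comparisons in view. Among the IAA libraries, deviations of same-numbered libraries correlated between times at 0.139 to 0.729 in exons and 0.0185 to 0.729 in introns. Between 2 h and 8 h the correlation was 0.469 in exons and 0.269 in introns. Between control and 6 h it was -0.0182 and -0.0238. limma 3.58.1 and DESeq2 1.42.0 served as alternatives. Scripts were tested on simulated data. Symbols and coordinates came from GENCODE vM21, where 54349 of 55401 identifiers had the same version and 55141 matched without it. Within-replicate differences used log2(CPM + 0.5). Depth was 18540456 to 22518456 exon counts in the 4 libraries.

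Members, lists and motifs were chosen with earlier results of these data known. Named genes were the 10 lower and 10 higher genes with the smallest p that lay on the same side within both replicates, plus, per list, at most 4 called members or else the 2 with the smallest p, and Srcap. With 0 called, the smallest unadjusted p filled the places. The 22 motifs, searched on both strands, were 3 forms of the long site of ZNF143 and its parts ACTACA and TACAATTCC, the X-box core GTTGCCA and 2 full X-box palindromes, the CCAAT box, the palindromes of ZBTB33 and NRF1, the CRE TGACGTCA, the YY1 motif GCCATTTTG, the ETS motifs CCGGAAG and GGAAGT, the ATF4 composite TGATGNAA, the cores of the interferon response element and of the ETS-IRF composite, the STAT motif TTCNNNGAA, the motif CACNNCCTC, the E-box CACGTG and the TATA motif TATAAA. Several overlap one another. Motifs of 10 or more letters are given by name.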

Additional observations from a re-analysis of the deposited data

How the results depend on the processing

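The count of genes called between 8 h and 2 h in exons, 0 lower and 0 higher over 8 libraries with the replicate block, was also 0 and 0 without the replicate block, with DESeq2 size factors, total counts, all 10 libraries, a linear trend and without any 1 of the 4 libraries (0 to 0). It was 16 lower and 10 higher with no filter, 3 and 3 with DESeq2 and the replicate block, 0 and 1 with DESeq2 without it, and 239 and 112 on the 4 libraries alone with the replicate block. Chosen after seeing the data were the fits without the 6 h replicate 2 (336 and 143, and 0 and 0 without the replicate block), voom with sample weights (157 and 78), and the 4 libraries without the replicate block (0 and 0) or with DESeq2 (5 and 9). In introns the 0 and 0 became 11 and 26 on the 4 libraries, 5 and 4 with DESeq2 and the replicate block and 2 and 1 without it. For 6 h against 4 h, 0 and 0 became 0 and 2 with no filter, 43 and 11 on its 4 libraries, and 0 to 1786 lower and 0 to 2187 higher with 1 library left out, the upper values without the 6 h replicate 1. The cilium median of -0.416 was -0.151, -0.154 and -0.146 with DESeq2 with the block, without it and on 4 libraries, and -0.428 to -0.391 with 1 library left out. The stress response median of -0.241 was -0.0993, -0.101 and -0.107 in those fits and -0.3 to -0.146 with 1 left out, and the interferon median of 0.382 was 0.0964, 0.0792 and 0.0784, and 0.262 to 0.388. With 1 library left out, the noncoding RNA median ran from -0.0427 to 0.524 and that of all genes from -0.0213 to 0.0179. For all genes it was 0.0244 with DESeq2 size factors, 0.0256 with total counts and 0.0237 without the replicate block. DESeq2 fold changes are shrunken. Srcap, at 0.13, ran from -0.0068 (without the 8 h replicate 2) to 0.251 (without the 8 h replicate 1). Over 21 named genes and 18 settings, 282 of 378 values kept direction and stayed uncalled, 95 gained a call and 1 reversed. No gene was called at first, so none could lose a call. Except where stated, the cause was not tested.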
